A study of Mus musculus with 26 samples.

Results

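Gdf3, Dppa3, Nanog and Slc2a3 are neighbours on mouse chromosome 6 and form a well-known cluster of genes used in pluripotent cells. The cluster was taken as the stretch from 50 kb before the first to 50 kb after the last end of these 4 genes, chr6:122555403-122852363 in GRCm38, which is 297 kb long. Over 26 lists of open chromatin peaks, 224 of 451563 peaks lay in this stretch. Peaks that overlapped or touched were merged across the 26 lists into 75600 regions genome-wide, of which 32 lay in the stretch.

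Nanog is a homeobox transcription factor of the pluripotency network, and its level in embryonic stem (ES) cells is known to be set by its promoter together with distal enhancers on either side of the gene. Dppa3, also called Stella, is a maternal and germ-line protein that protects DNA methylation in the early embryo and is used as a marker of naive cells, while Gdf3 is a secreted ligand of the TGF-beta family related to Nodal. Slc2a3 encodes the glucose transporter GLUT3, and the enhancers beyond Nanog on its side are known to lie around this gene.

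The assay was ATAC-seq, which reads accessible DNA from where the enzyme Tn5 can insert. The series asked how formative stem (FS) cells, a state placed between naive ES cells and primed epiblast stem cells (EpiSCs), compare with both. A first set held 6 groups of 3 libraries each: FS1 at passage 21 and FS2 at passage 29, both in A3XR medium, EpiSC_AF at passage 22 in AF medium, EpiSC_AFX1 at passage 14 and EpiSC_AFX2 at passage 16 in AFX medium, and ES at passage 16 in 2iL medium. A second set, marked Rd2, held 2 ES libraries at passage 33 in 2iL, whose source is labelled Rd2GFP, and 2 EpiSC libraries at passage 16 in AFX. It also held 4 libraries of epiblast-like cells (EpiLCs), which had been induced from ES cells for 2 days in AF with KSR and sorted for low GFP. ES lists of both sets, where counted together below, thus come from sources with different labels, ES and Rd2GFP. The labels do not say whether the libraries of a group came from separate cultures, so each p-value measures the spread between these libraries, which may be technical. Comparisons pooled FS1 with FS2 as FS, EpiSC_AFX1 with EpiSC_AFX2 as EpiSC_AFX, and all first-set groups other than ES. Each library was counted as a separate unit, although the first-set ES libraries share a single source label and passage. Between ES, FS and EpiSC the cell type changed together with the medium. The EpiLC libraries carry numbers in pairs, and whether paired libraries share their cells is not stated.

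Read counts were not used here, so the depth of each library is unknown and only the length of its peak list can be given. First-set lists held 8044 to 31263 peaks, with ES (8044 to 10961) and FS2 (11796 to 14147) the shortest, and Rd2 lists held 471 to 26045. Because a longer list reaches weaker peaks, the first set was compared at equal list length, with the 8044 peaks of highest −log10 p of each list, and is given as deposited beside it. Marker genes were read at equal list length from peaks within 1 kb of a gene start. Either gene end was used where no start was given, as for Tbx3. Of 5 naive markers 2, Zfp42 and Tbx3, had a peak in 3 of 3 ES libraries and in 0 of the other 15, whereas Klf4 had one in 2 of 3 ES libraries and 8 of 15 others, Tfcp2l1 in 0 of 3 and 11 of 15, and Esrrb in none of the 18. Of 5 formative markers, Tcf15 and Dnmt3b each had a peak in 12 of 15 libraries other than ES, with 3 of 3 in FS1 but 0 of 3 in FS2, and in 0 of 3 ES ones. Pou3f1 had one in 14 of 15 other and 1 of 3 ES libraries, Fgf5 in 4 of 15 and 0 of 3, and Otx2 in none. None of 5 primed markers had one in more than 2 libraries. At this length only 2 of the 15 markers, both naive, thus separated ES from all other libraries. As deposited neither did, since Zfp42 also had a peak in 1 of 3 EpiSC_AF libraries. Tbx3 then also had one in 3 of 3 FS1, 1 of 3 FS2 and 3 of 3 libraries of each first-set EpiSC group. In the Rd2 set, as deposited, Zfp42 had a peak in 0 of 2 ES, 2 of 4 EpiLC and 0 of 2 EpiSC_AFX lists. Tbx3 had one there in 0 of 2, 3 of 4 and 1 of 2. The Rd2_ES lists, of only 471 and 2576 peaks, thus held neither marker. At equal list length only Thy1 of 5 feeder fibroblast markers had a peak, in 8 of 15 libraries other than ES. Of 5 extraembryonic endoderm markers 0 had one. As deposited 4 of 5 of each had a peak in some list, though in no ES list of either set. Col1a1 then had one in 3 of 3 FS1, 1 of 3 FS2, 3 of 3 EpiSC_AF and 2 of 3 libraries of each first-set EpiSC_AFX group. Gata6 had one in 2 of 3 FS1, 0 of 3 FS2, 3 of 3 EpiSC_AF, 2 of 3 EpiSC_AFX1 and 3 of 3 EpiSC_AFX2 libraries.

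Promoter sequences are given for 2 annotated starts of the stretch that had peaks at equal list length, those of Nanog at chr6:122707489 and of Foxj2. A second annotated Nanog start, chr6:122707565, lies within the same peak region, and its sequence is not printed. The Nanog start means the first of them here. The 250 bases before the Nanog start, chr6:122707239-122707488 on the plus strand, are given first. For Gdf3, Dppa3 and Slc2a3, whose promoters were not analysed here, neither end of the annotated span had a peak within 1 kb at that length. Those before the start of Foxj2, the next gene beyond Slc2a3, chr6:122819934-122820183 on the plus strand, come second. All 18 Nanog start peaks of the 26 lists overlapped the Nanog window, but only 10 of the 22 lists with a peak in the Foxj2 start region had one that overlapped the Foxj2 window, and the other peaks there lay past it. Both come from RefSeq in the build GRCm38.p6, 5′ to 3′. Capitals mark the core of the composite motif read by Oct4 with Sox2 (TTGTNATGC, here on the minus strand) in Nanog, and both GC boxes (GGGCGG or its reverse complement) in Foxj2.
Nanog: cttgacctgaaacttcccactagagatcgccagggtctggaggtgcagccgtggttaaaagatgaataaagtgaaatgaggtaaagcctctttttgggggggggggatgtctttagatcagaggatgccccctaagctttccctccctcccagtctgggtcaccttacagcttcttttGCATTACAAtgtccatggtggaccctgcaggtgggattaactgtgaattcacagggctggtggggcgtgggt
Foxj2: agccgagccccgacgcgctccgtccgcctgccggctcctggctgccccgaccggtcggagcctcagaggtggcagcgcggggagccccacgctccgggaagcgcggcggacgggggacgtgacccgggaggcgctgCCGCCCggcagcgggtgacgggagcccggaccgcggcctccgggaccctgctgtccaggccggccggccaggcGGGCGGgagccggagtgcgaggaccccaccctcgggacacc

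The window searched runs from 250 bases before to 50 bases after a start. That of Nanog has a GC content of 54.3% and 4 CpG dinucleotides, close to the medians of 52.7% and 7 over 32817 promoters, while that of Foxj2 has 78.3% and 37. The Oct-Sox core in Nanog (chr6:122707417-122707425) lies 72 to 64 bases before the printed start and 148 to 140 bases before the second one. Of the promoters 0.731% hold these letters. Beside the core the Nanog window holds a Sox motif (CATTGT, 12.6% of promoters) that shares bases with the core, an Otx motif (TAATCC, 7.06%) and 2 Klf motifs (GGGNGTG, 29.1%). The window of the second Nanog start, with a GC content of 56% and 4 CpG dinucleotides, holds the same matches. Foxj2 holds 2 GC boxes, as 35.6% of promoters hold at least 1, and the other motifs searched on both strands had no match in it. These were an octamer (ATGCAAAT, 1.74% of promoters), an Esrrb motif (TCAAGGTCA, 0.424%), a CCAAT box (CCAAT, 37.4%), a TATA box (TATAAA, 13.6%), a Tcf/Lef motif (AACAAAG, 5.85%) and a Smad motif (CAGACA, 21.04%), none of which matched in the Nanog window either. A match describes the letters only.

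The number of peaks in the stretch was lowest in short lists but did not follow the length of the list closely among the longer ones. As deposited, FS1 libraries had 10, 15 and 17 peaks there, FS2 6, 7 and 4, EpiSC_AF 8, 9 and 11, EpiSC_AFX1 10, 11 and 13, EpiSC_AFX2 9, 11 and 11, and ES 4, 2 and 4. ES libraries were thus the lowest of the first set, level with FS2 library 3, and their lists were also the shortest. As a share of the list the stretch took 0.0249% to 0.0412% of ES peaks and 0.0309% to 0.0628% of the peaks of other first-set libraries, ranges that overlap. At equal list length FS1 had 3, 3 and 5 peaks, FS2 3, 6 and 1, EpiSC_AF 5, 5 and 6, EpiSC_AFX1 5, 5 and 6, EpiSC_AFX2 6 in each, and ES 3, 2 and 4. Every EpiSC library then had at least 5, while ES and FS libraries overlapped each other and, in FS1 and FS2, reached up into the EpiSC range. The part that list length takes in the counts as deposited was not tested beyond this cut.

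**Figure D1:**
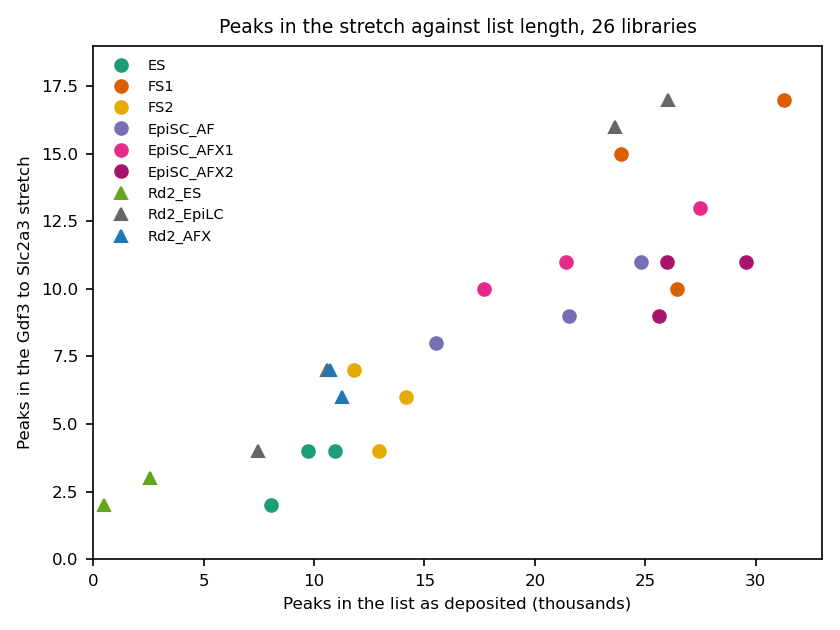
Number of peaks in the stretch from Gdf3 to Slc2a3 (y axis) against the number of peaks in the deposited list, in units of 1000 (x axis), with 1 point per library, circles for the first set and triangles for the Rd2 set. ES libraries lie at the lower left with 2 to 4 peaks, and the highest count, 17, was reached by FS1 library 3 (31263 peaks) and Rd2_EpiLC library 4 (26045), while EpiSC_AFX2 library 2, with 29575 peaks, had 11.

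Peaks were spread unevenly over the stretch. Of the 32 regions, 12 had a peak in 1 list only, 7 in 2 to 5 lists and 13 in 6 or more. Among them, 10 lay within the annotated span of Slc2a3, 5 within Foxj2, 2 within Gdf3, 1 within Apobec1, 1 at Nanog and 11 between genes, while none lay within Dppa3. At equal list length 11 regions held the 80 first-set peaks and 21 had none. As deposited, the 5 ES lists of either set had peaks in 6 of the 32 regions. The 15 first-set lists other than ES, which are more in number and longer, had peaks in 26. At equal list length the 3 ES libraries had peaks in 5 regions, against 6 in FS1, 6 in FS2, 6 in EpiSC_AF, 8 in EpiSC_AFX1 and 6 in EpiSC_AFX2.

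**Figure D2:**
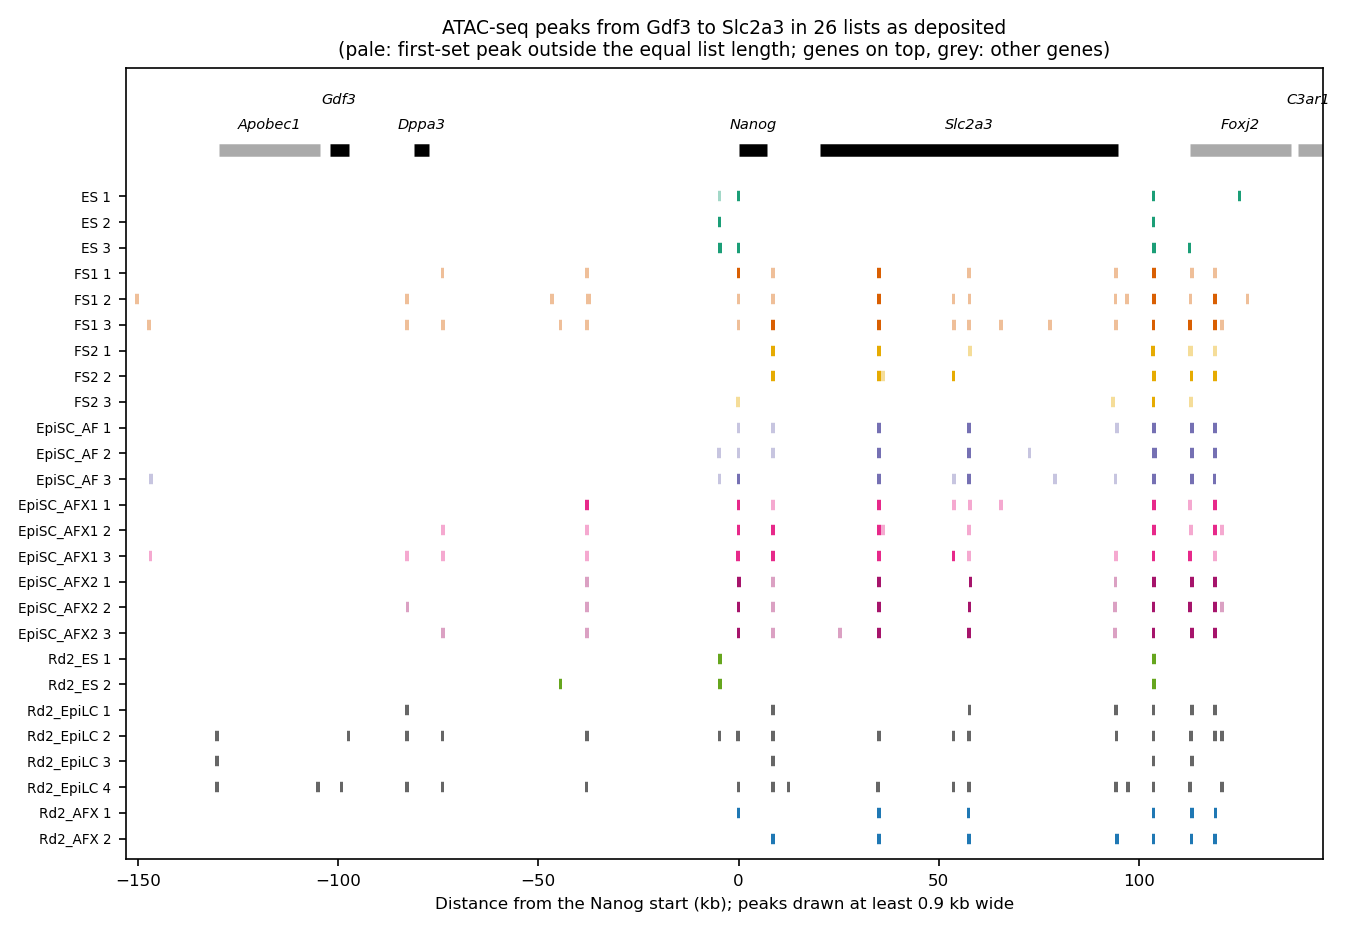
Peaks of each of the 26 lists (rows) along the stretch, by distance from the Nanog start in kb (x axis), with the spans of the 4 genes in black and of Apobec1, Foxj2 and C3ar1 in grey above, and first-set peaks outside the equal list length in pale colour. The column of peaks 103 kb from the Nanog start runs through all 26 rows, and the column 4.32 kb before Nanog is filled in the 5 ES rows.

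Gdf3, the ligand gene, had almost no peaks. None of the 18 first-set lists had a peak in it or within 1 kb of either of its ends, as deposited or at equal length. Its 2 regions came from 1 Rd2_EpiLC library each: chr6:122608116-122608607 inside the gene, and chr6:122609988-122610114 over its right end. Both fell in single lists of 23608 or more peaks, and no ES or EpiSC list had either.

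Dppa3, the germ-line and naive marker, had no peak within 1 kb of its ends in any of the 26 lists, ES included. A region 1496 bp before its left end, chr6:122624561-122624928, had a peak in 2 of 3 FS1, 1 of 3 EpiSC_AFX1, 1 of 3 EpiSC_AFX2 and 3 of 4 Rd2_EpiLC lists. A region 3.15 kb past its right end, chr6:122633417-122633725, had one in 2 of 3 FS1, 2 of 3 EpiSC_AFX1, 1 of 3 EpiSC_AFX2 and 2 of 4 Rd2_EpiLC lists. Neither had one in any ES, FS2, EpiSC_AF or Rd2_AFX list, and neither had one at equal list length. The peaks nearest to Dppa3 thus came from FS1, EpiSC_AFX and EpiLC lists of 10563 to 31263 peaks, and not from the 5 ES lists, which held 471 to 10961. Among 5 other germ-line and Dppa genes (Dppa2, Dppa4, Dppa5a, Prdm1, Tfap2c), only Prdm1 had a start peak at equal length, in 1 ES and 4 other libraries.

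Between Dppa3 and Nanog the most frequent region lay 36.9 kb before the Nanog start, chr6:122669454-122670598. As deposited it had a peak in 3 of 3 FS1, 3 of 3 EpiSC_AFX1, 3 of 3 EpiSC_AFX2 and 2 of 4 Rd2_EpiLC libraries, and in none of FS2, EpiSC_AF, Rd2_AFX or either ES group. EpiSCs in AF and in AFX did not overlap here, with 0 of 3 against 6 of 6 (Fisher's exact test p = 0.0119, Benjamini-Hochberg adjusted p = 0.681). Of 11274 regions tested for this pair as deposited, 197 (1.75%) were likewise separated. Cut to equal length, the lists kept 1 peak, in EpiSC_AFX1 library 1.

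The region 4.32 kb before the Nanog start, chr6:122702526-122703165, was the one place in the stretch that every ES list held and no FS or EpiSC_AFX list did. As deposited it had a peak in all 3 ES and all 2 Rd2_ES libraries, in 2 of 3 EpiSC_AF and 1 of 4 Rd2_EpiLC libraries, and in 0 of 6 FS, 0 of 6 EpiSC_AFX and 0 of 2 Rd2_AFX libraries. The ES peaks were 312, 157 and 601 bp wide and ranked 8484 of 10961, 2770 of 8044 and 7965 of 9705, so they were middling or weak in their lists. Both Rd2_ES lists, of only 471 and 2576 peaks, held it, at ranks 402 and 1760. The EpiSC_AF peaks, 241 and 164 bp wide, stood at ranks 11729 and 13529 of their longer lists, and the EpiLC peak, 225 bp wide, at rank 17896.

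The 12 FS and EpiSC_AFX lists without this peak were longer, at 11796 to 31263 peaks, than every ES list. Genome-wide 309 regions had a peak in all 5 ES lists, of which 288 (93.2%) had one in all 12 FS and EpiSC_AFX lists and 1 (0.324%) had one in none. That 1 region was the one before Nanog. This count was made after the pattern had been seen, and is a description without a test. Among the 8044 strongest peaks 2 of 3 ES libraries and 0 of 15 others had the peak, which is too few libraries with a peak for the filter of 3, so it was not tested there. As deposited the 3 ES libraries were separated from the 6 FS libraries (Fisher's exact test p = 0.0119, Benjamini-Hochberg adjusted p = 0.105), where 1.68% of 14489 tested regions were separated with the peak in ES and 9.63% with the peak in FS. Against the 6 EpiSC_AFX libraries the adjusted p of the same test was 0.0439 as deposited, where 27.1% of 16468 tested regions passed. Against all 15 other first-set libraries, 2 of which had the peak, the region did not pass as deposited (Fisher's exact test p = 0.0123, Benjamini-Hochberg adjusted p = 0.099).

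At the Nanog start itself, chr6:122707227-122707826, ES libraries did not stand apart. At equal list length 10 of 18 libraries had a peak: 2 of 3 ES, 1 of 3 FS1, 0 of 3 FS2, 1 of 3 EpiSC_AF, 3 of 3 EpiSC_AFX1 and 3 of 3 EpiSC_AFX2. As deposited 15 had one, all but ES library 2 and FS2 libraries 1 and 2. Each of the 15 first-set peaks overlapped the start base, and the Oct-Sox core was covered by 14 of them and by 17 of the 18 peaks of both sets. In the Rd2 set the start had a peak in 2 of 4 EpiLC and 1 of 2 EpiSC_AFX libraries and in neither ES list.

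The strength of the Nanog start peak, given as its percentile among all peaks of its own deposited list (100 is strongest), was 60.3 and 87.6 in the ES libraries with a peak. It was 72.9, 45.9 and 60.8 in FS1, 34.5 in FS2 library 3, and 37.0, 58.8 and 90.9 in EpiSC_AF. In EpiSC_AFX1 it was 84.0, 88.8 and 92.3, and in EpiSC_AFX2 74.8, 88.4 and 92.8. All 6 first-set EpiSC libraries in AFX thus ranked this start higher in their lists than any FS library did. The Rd2 EpiSCs in AFX did not, with a percentile of 27.9 in library 1 and no peak in library 2. The share of all regions ranked likewise was not counted. FS had the peak in 1 of 6 and EpiSC_AFX in 6 of 6 libraries at equal length, which did not pass over all regions (Fisher's exact test p = 0.0152, Benjamini-Hochberg adjusted p = 0.652). As deposited the counts were 4 of 6 and 6 of 6.

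**Figure D3:**
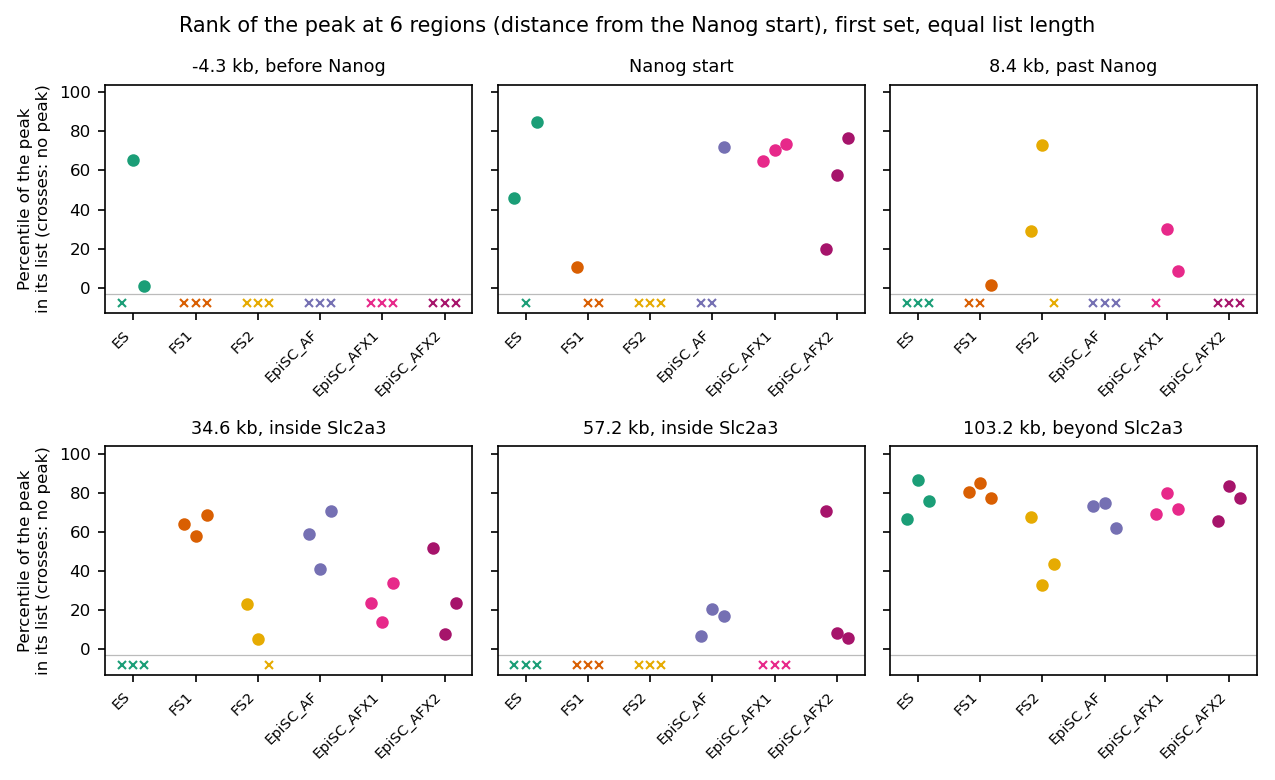
Percentile of the peak within the 8044 peaks of its list (y axis, 100 is strongest) in each of the 18 first-set libraries at 6 regions, with crosses for libraries without a peak and colours for the 6 groups. The Nanog start is filled in both EpiSC_AFX groups, the region inside Slc2a3 at 34.6 kb in 14 of the 15 libraries other than ES, and the region beyond Slc2a3 in every library.

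Of the 72 pairs of gene and first-set library over the 4 genes, 10 had a peak within 1 kb of the Nanog start or of either annotated end of the other 3 genes at equal list length, all of them at Nanog. As deposited 24 had one, 15 at Nanog and 9 at the right end of the Slc2a3 span. These counts leave out the region at 34.6 kb inside Slc2a3, which lies far from both ends of the span. For comparison, 51.0% of 21631 protein-coding genes had such a peak in at least 1 library at equal length and 6.10% in all 18, and 31.7% had none in any of the 26 lists, as Dppa3 had. None of the 4 genes was separated between ES and the other libraries, and 136 of the 11035 genes with a peak (1.23%) were. The gene whose start peaks were most like those of Nanog was Echdc1, in step in 17 of 18 libraries with a Pearson correlation of 0.74 between percentiles (no peak as 0). Ccdc59, Mettl25 and Zfp593 were in step in 16 and Gm39469 in 15. These correlations describe libraries that share list lengths and groups.

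Just past Nanog no ES list had a peak. The region 1.24 kb beyond its right end, chr6:122715874-122716287, had a peak in 3 of 3 FS1, 2 of 3 FS2, 2 of 3 EpiSC_AF, 3 of 3 EpiSC_AFX1 and 3 of 3 EpiSC_AFX2 libraries as deposited, and in 0 of 3 ES. In the Rd2 set 4 of 4 EpiLC, 1 of 2 EpiSC_AFX and 0 of 2 ES libraries had it. The 13 first-set peaks were 180 to 413 bp wide, with percentiles from 19.6 to 81.6 and a median of 64.4. At equal list length the peak was left in 1 of 3 FS1, 2 of 3 FS2 and 2 of 3 EpiSC_AFX1 libraries and in no ES, EpiSC_AF or EpiSC_AFX2 library. FS2, whose lists were short, had it at the highest percentile of the first set (81.6, library 2).

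Slc2a3, the glucose transporter gene, has a RefSeq span of 74555 bp (chr6:122727809-122802363) that includes predicted transcripts. The region inside it 34.6 kb from the Nanog start, chr6:122742096-122742773, lies in the part of the span where the curated Slc2a3 transcript is known to begin. It had a peak in 14 of 15 first-set libraries other than ES, at equal list length and as deposited alike, and in 0 of 3 ES. The 1 library without it was FS2 library 3. The peaks were 150 to 323 bp wide. Percentiles at equal length were 64.2, 58.0 and 68.9 in FS1, 23.4 and 5.30 in FS2, 58.8, 40.8 and 70.8 in EpiSC_AF, 23.7, 13.7 and 33.9 in EpiSC_AFX1, and 51.6, 7.89 and 23.8 in EpiSC_AFX2. The FS1 values overlapped those of EpiSC_AF and lay above those of every EpiSC_AFX library, and the share of all regions with such an order was not counted. In the Rd2 set 0 of 2 ES, 2 of 4 EpiLC and 2 of 2 EpiSC_AFX libraries had it.

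ES against the other 15 libraries gave this region a Fisher's exact test p of 0.0049 and a Benjamini-Hochberg adjusted p of 0.0623, short of the 0.05 threshold. Of the 10052 regions tested, 535 (5.32%) passed, 1576 had an unadjusted p under 0.05, and the 535 were also the separated ones (5.32%), with a peak in every library of 1 side and none of the other. Without ES library 1, 2 or 3, each left out alone, 0 regions passed genome-wide, although 941, 894 and 897 were then separated. With 2 ES libraries even full separation did not pass, so these counts of 0 do not show that the calls hang on a given ES library. In the stretch 6 regions were tested, 2 had an unadjusted p under 0.05 and 0 passed or were separated. Without FS2 library 3 the adjusted p was 0.0242, and without FS2, left out after its short lists had been seen, it was 0.0233, so that 1 library decided the call. Over all libraries left out in turn it ranged from 0.0242 to 0.225.

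Other genes of glucose uptake and glycolysis had start peaks in ES. Of Slc2a1, Hk2, Pfkp, Ldha and Pgk1, all 5 had a start peak at equal length, 4 of them in ES libraries as well. Pgk1 had one in all 18 libraries and Slc2a1, the related transporter GLUT1, in 2 of 3 ES and 14 of 15 others. Ldha was the exception, with 0 of 3 ES and 7 of 15 others. None of the 5 was separated between ES and the rest.

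The region 57.2 kb from the Nanog start, still within the Slc2a3 span, chr6:122764659-122765534, was wide and also lacked ES peaks. As deposited it had a peak in 3 of 3 FS1, 1 of 3 FS2, 3 of 3 EpiSC_AF, 3 of 3 EpiSC_AFX1, 3 of 3 EpiSC_AFX2, 3 of 4 Rd2_EpiLC and 2 of 2 Rd2_AFX libraries, and in none of the 5 ES lists. The 13 first-set peaks had a median width of 704 bp, against median widths of 252 to 307 bp over whole first-set lists. Cut to equal length, it was left in 3 of 3 EpiSC_AF and 3 of 3 EpiSC_AFX2 libraries only, with percentiles of 6.91 to 20.7 in EpiSC_AF and 70.7, 8.04 and 5.63 in EpiSC_AFX2. Most of these percentiles lie near the end of the list, where a small shift in rank takes a peak out.

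A region at the right end of the Slc2a3 span, chr6:122800709-122802218, had a peak in 10 of 18 first-set lists as deposited, 3 in FS1, 1 in FS2, 2 in EpiSC_AF, 1 in EpiSC_AFX1, 3 in EpiSC_AFX2 and 0 in ES. It had none at equal length. In the Rd2 set it had a peak in 3 of 4 EpiLC, 1 of 2 EpiSC_AFX and 0 of 2 ES lists. The other 7 regions of the span had a peak in 1 to 8 lists each. The most frequent of them, chr6:122761101-122761355, had a peak in 2 FS1, 1 FS2, 1 EpiSC_AF, 2 EpiSC_AFX1 and 2 Rd2_EpiLC lists. No ES list of either set had a peak anywhere in the Slc2a3 span.

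Beyond Slc2a3, 8.32 kb past its right end and 103 kb from the Nanog start, lay the 1 region of the stretch that every list held, chr6:122810682-122811910. All 26 lists had a peak there, as 281 of 75600 regions did (0.372%), and so did all 18 first-set lists at equal length, as 1500 of 24880 regions did (6.03%). It gave 18 of the 80 first-set peaks of the stretch at that length. The peaks were broad, 325 to 1183 bp with a median of 759.5, and the 4 EpiLC lists placed them at percentiles 93.0 to 98.1. ES lists placed them at 75.4, 86.5 and 80.2, and Rd2_ES at 76.0 and 68.5.

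Within the first set this peak was lower in rank in FS2 than in FS1. As deposited its percentile was 94.0, 95.04 and 94.2 in FS1 and 81.6, 54.2 and 65.1 in FS2. It was 86.1, 90.7 and 87.7 in EpiSC_AF, and 86.1 to 95.5 over the 6 EpiSC_AFX libraries. At equal list length the percentile was 77.3 to 85.3 in FS1 and 32.9 to 67.7 in FS2. How many regions genome-wide part FS1 from FS2 by rank in this way was not counted, so this is not shown to be a trait of the region. ES libraries, at 66.5 to 86.5, then overlapped each of the other 5 groups. The FS2 lists were also shorter than the FS1 lists, and the part of list quality in this rank was not tested.

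Foxj2, a forkhead transcription factor gene outside the 4, closed the stretch. Its merged start region, chr6:122819750-122820982, had a peak in 10 of 18 first-set libraries at equal list length, including 1 of 3 ES, 2 of 6 FS, 3 of 3 EpiSC_AF and 4 of 6 EpiSC_AFX. These were not all peaks at 1 site. The ES peak ended at 122820233, whereas the EpiSC_AF peaks began at 122820585 or later. The start base itself was overlapped in 4 libraries at that length, 1 each of FS1, EpiSC_AFX1, EpiSC_AFX2 and ES. As deposited 15 of 15 libraries other than ES had a peak in the merged region. A region inside Foxj2, chr6:122826086-122826751, had a peak in 11 of 15 other libraries and 0 of 3 ES ones at equal length (Fisher's exact test p = 0.0429, Benjamini-Hochberg adjusted p = 0.274). It was the other region of the stretch with an unadjusted p under 0.05 in the comparison of ES with all others.

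**Figure D4:**
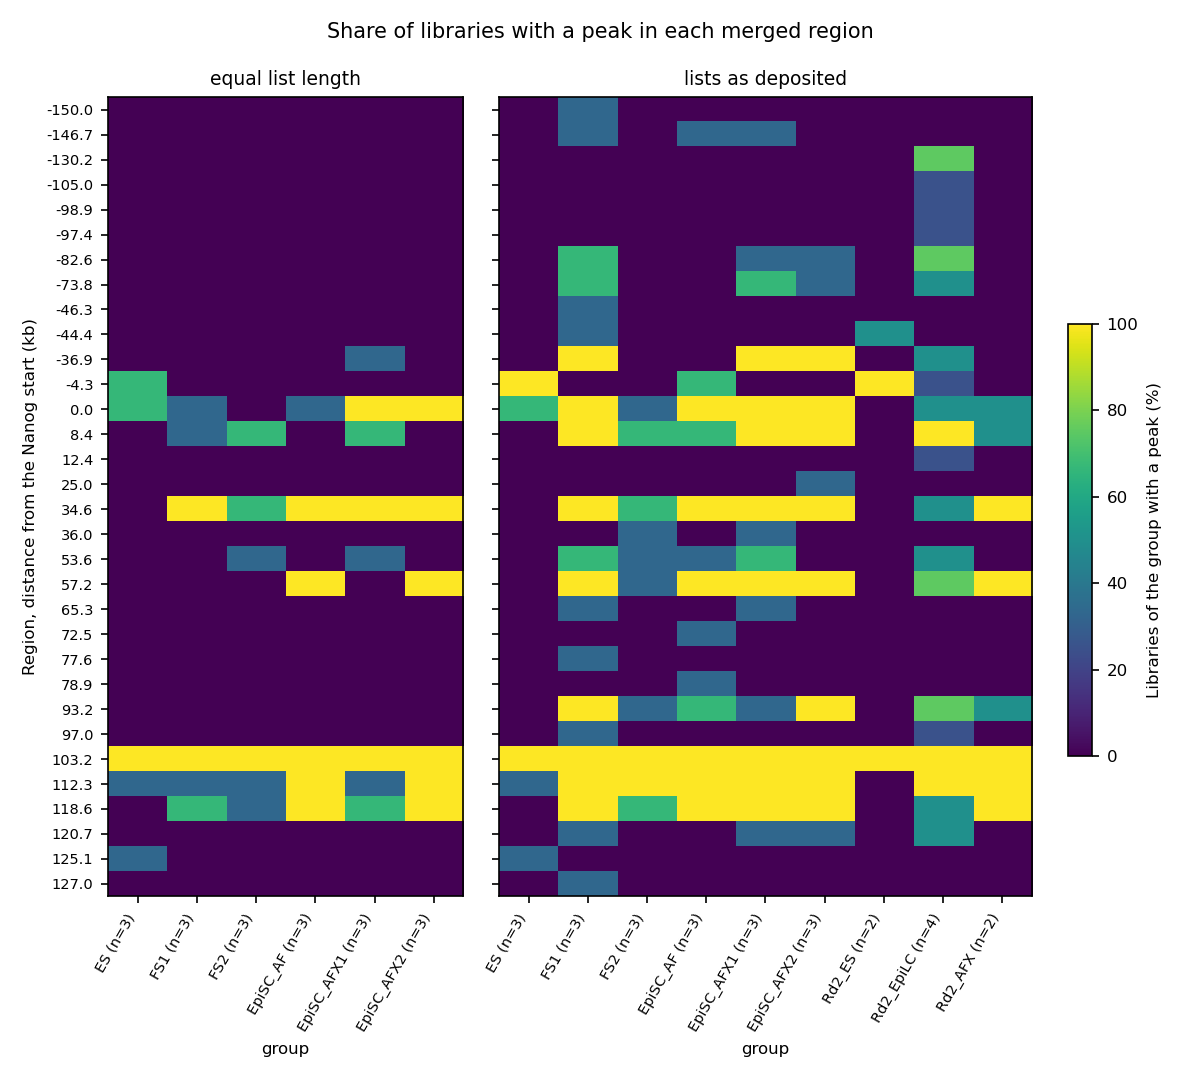
Share of the libraries of each group (columns) with a peak in each of the 32 regions (rows, by distance from the Nanog start in kb), in percent by colour, at equal list length for the first set on the left and as deposited for both sets on the right. On the right the ES columns are filled at −4.32 and 103.2 kb and dark over the span of Slc2a3, while at 34.6 and 57.2 kb the columns of FS1, EpiSC_AF, both EpiSC_AFX groups and Rd2_AFX are filled and those of FS2 and Rd2_EpiLC are filled in part.

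Pairwise comparisons asked where naive, formative and primed cells differed over the stretch, with Fisher's exact test and Benjamini-Hochberg adjustment over all regions tested. The comparisons with ES share the same 3 ES libraries. Between ES and FS 5 regions of the stretch were tested, 1 had an unadjusted p under 0.05 (that at 34.6 kb in Slc2a3, 0 of 3 against 5 of 6, exact p = 0.0476, adjusted p = 0.201), and 0 passed or were separated. Genome-wide 0 of 6173 regions passed (0%), 1464 had an unadjusted p under 0.05 and 839 (13.6%) were separated. Between ES and EpiSC_AFX 4 were tested and 2 had an unadjusted p under 0.05. The region at 34.6 kb was separated, with 0 of 3 against 6 of 6 (exact p = 0.0119, adjusted p = 0.0607), and 0 regions passed. Genome-wide 0 of 5587 passed (0%), 1672 had an unadjusted p under 0.05 and 1095 (19.6%) were separated. With 0 of 5 and 1 of 4 regions separated, the stretch held too few regions to be set apart from these backgrounds, and with 3 against 6 libraries the smallest p of 0.0119 leaves little room for an adjustment over all regions.

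As deposited, ES and EpiSC_AFX differed more over the stretch, with lists of very unequal length. Then 6 regions were separated, and each passed with an adjusted p of 0.0439 (Fisher's exact test, Benjamini-Hochberg). The EpiSC_AFX libraries held 5 of them: those 36.9 kb before Nanog, 1.24 kb past Nanog, at 34.6 and 57.2 kb in Slc2a3, and inside Foxj2. ES held the one 4.32 kb before Nanog. Of 16468 regions tested, 25.6% were separated with the peak in EpiSC_AFX, 1.55% with the peak in ES, and 27.1% passed.

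FS cells and EpiSCs were compared in the same way. Between FS and EpiSC_AFX 5 regions of the stretch were tested, only the Nanog start had an unadjusted p under 0.05, and 0 passed or were separated. Genome-wide 0 of 6665 passed (0%), 155 had an unadjusted p under 0.05 and 34 (0.51%) were separated. Between FS and EpiSC_AF 4 were tested, and the region at 57.2 kb in Slc2a3 was separated, with 0 of 6 against 3 of 3 (Fisher's exact test p = 0.0119, adjusted p = 0.373). Genome-wide 0 of 4914 passed (0%), 454 had an unadjusted p under 0.05 and 157 (3.19%) were separated. With 6 against 3 libraries 0.0119 is the smallest p, so a count of 0 passed says little here. This separation was lost as deposited, where 4 of 6 FS libraries had the peak, and 0 regions were separated with peaks ordered by fold enrichment.

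Between EpiSC_AF and EpiSC_AFX 1 region of the stretch was tested, that at 57.2 kb, with 3 of 3 against 3 of 6 (Fisher's exact test p = 0.464, adjusted p = 0.92). Genome-wide 0 of 4189 regions passed (0%), 203 had an unadjusted p under 0.05 and 62 (1.48%) were separated. In the Rd2 set EpiLCs and EpiSCs in AFX were compared as deposited over 18 regions of the stretch, and 0 passed, had an unadjusted p under 0.05 or were separated. With 4 against 2 libraries the smallest p of Fisher's exact test is 0.0667, and genome-wide 0 of 30116 regions passed (0%) or had an unadjusted p under 0.05, while 637 (2.12%) were separated.

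EpiLC libraries held the most regions of the Rd2 set, 20 of the 32, against 8 in Rd2_AFX and 3 in Rd2_ES. Their 7, 16, 4 and 17 peaks went with lists of 10563, 23608, 7469 and 26045 peaks. Every EpiLC list had the region 1.24 kb past Nanog, the region beyond Slc2a3 and the merged Foxj2 start region. Of the 5 regions that only EpiLC lists held, 2 lay in Gdf3, 1 at the start of Apobec1, 1 between Nanog and Slc2a3 and 1 next to the other end of Apobec1, the last in 3 of 4 libraries. Rd2_ES held the region 4.32 kb before Nanog and that beyond Slc2a3 in both lists, and a region 44.4 kb before Nanog in 1.

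Other genes of the pluripotency network were counted by start peaks at equal list length, from lists of genes with known roles. Of 11 other naive genes 7 had a peak in at least 1 library, where 51.0% of all genes had one. Of these, 2, Zfp42 and Tbx3 (by either gene end), were separated with the peak in ES, as were 46 of the 11035 genes with a peak (0.417%). As deposited neither was separated. Zfp42 then had a peak in 1 of 3 EpiSC_AF libraries, and Tbx3 in every FS1 and first-set EpiSC library and 1 of 3 FS2 libraries. In the Rd2 set neither had a peak in an ES list, while Zfp42 had one in 2 of 4 and Tbx3 in 3 of 4 EpiLC lists. Of the core factors Pou5f1, Sox2 and Sall4, all 3 had a peak in some library and 0 were separated. Sox2 resembled Nanog in this respect, with 2 of 3 ES and 9 of 15 other libraries, whereas Pou5f1 had 0 of 3 ES and 11 of 15 others. Of 9 genes of the Nodal pathway, to which Gdf3 is related, 5 had a peak and 0 were separated. Nodal itself had one in 5 of 9 EpiSC libraries and in 0 of 9 ES and FS libraries at equal length. As deposited 3 of 3 FS1 and 9 of 9 first-set EpiSC libraries had one, and 0 of 3 FS2 and 0 of 3 ES did. In the Rd2 set 0 of 2 EpiSC_AFX, 0 of 4 EpiLC and 0 of 2 ES lists had one. The share of all genes with such a pattern was not counted. The receptor genes Acvr1b and Acvr2b had one in all 15 libraries other than ES and in 3 and 2 of 3 ES libraries.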

How the data were processed

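ATAC-seq libraries of mouse pluripotent cells were prepared from 50000 cells each, per the labels' protocols. The submitters' processing notes name Trim Galore, Bowtie, Picard, MACS2 and the build mm10, without versions. The deposited files are 26 broadPeak lists, 1 per library and none pooled. In each deposited list a peak carries a score, a fold enrichment ratio, a −log10 p and a −log10 q, all of them the authors' values. They were used only to order or filter peaks within a list.

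The 4 genes, the gene lists, the markers and the motifs were chosen with earlier results of these data known. Gene ends, names and promoter sequences came from RefSeq tables of GRCm38.p6, which has the coordinates of mm10. A gene start used the strand for 17274 of 21631 protein-coding genes, and either gene end for the other 4357, among them Gdf3, Dppa3 and Slc2a3. Described in full were gene start regions, regions separated in any comparison, and regions with a peak in 2 of 3 libraries of a first-set group at equal list length.

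A library had a region when 1 of its peaks overlapped it by 1 bp or more. Presence was compared with two-sided Fisher's exact tests (Python 3.11.15, scipy 1.17.1, pandas 2.3.3, numpy 2.4.6) on regions with a peak in at least 3 libraries and absent from at least 3, with Benjamini-Hochberg adjustment over all of them and a threshold of 0.05. The filter was 1 library in the Rd2 set, and 2 where leaving a library out left a group with 2. The test was tested on simulated data. Alternatives were the lists as deposited, ordering by fold enrichment, a −log10 q of at least 5, a cover of 50%, regions from the compared libraries, no filter, each library left out and a replicate block. Leaving out FS2 was added after seeing the data. Not every gene of the stretch is reported here. Libraries of a group shared at most 0.0746% of peaks with identical coordinates.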

Additional observations from a re-analysis of the deposited data

Results flagged for a closer look

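Of 21 sets of values checked for a library far from the rest of its group, 1 stood out. The peak of FS2 library 1 in the region beyond Slc2a3 was 325 bp wide, whereas the other 5 FS peaks there were 691 to 785 bp wide, so that the gap to the nearest took 0.796 of the range of the 6 FS libraries. Chance marks about 1 in 20 such sets. The peak stood at percentile 81.6 of its deposited list, the highest of the 3 FS2 libraries.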

How the results depend on the processing

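Calls and separations over the stretch were few and moved with single libraries and with list length. With the lists as deposited, ES against EpiSC_AFX gave 6 regions called and 6 separated, ES against FS gave 1 separated, FS against EpiSC_AF 0, EpiSC_AF against EpiSC_AFX 1, and start peaks numbered 24 over the 4 genes and 9 at Slc2a3. A −log10 q of at least 5 gave 2 called and 2 separated for ES against EpiSC_AFX, 0 separated for FS against EpiSC_AF and 1 for Rd2_EpiLC against Rd2_AFX. A cover of 50% gave 0 separated for ES against EpiSC_AFX, ordering by fold enrichment 0 for FS against EpiSC_AF, and lists cut to 7469 peaks 1 in the Rd2 set. Without FS2, a choice made after seeing the data, ES against all others gave 1 called and 1 separated, and ES against FS 1 separated. Leaving out each library in turn gave 0 to 1 called and 0 to 1 separated for ES against all others. It gave 0 to 1 separated for ES against FS, 1 to 2 for ES against EpiSC_AFX, 0 to 1 for FS against EpiSC_AFX, 0 to 1 for EpiSC_AF against EpiSC_AFX and 0 to 1 in the Rd2 set. The separations gained came without ES library 1, EpiSC_AF library 3, EpiSC_AFX1 library 3, FS1 library 1, FS2 library 3, Rd2_EpiLC library 1 or 3, or Rd2_AFX library 2. The causes were not tested.

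Under a replicate block 0 regions of the stretch passed in any first-set comparison. The numbers do not pair the libraries, since the correlation of same-number deviations lay between −0.0242 and 0.0151 over 45 pairs, with 0 over 0.1. Genome-wide, the 535 regions called for ES against all others became 1040 with the lists as deposited, 211 with a cover of 50%, and 0 with the −log10 q limit, with no filter and with the block. It was also 0 without ES library 1, without ES library 2 and without ES library 3, where even fully separated regions did not pass, and 539 to 590 without any 1 other library. Those for ES against EpiSC_AFX went from 0 to 4465 with the lists as deposited and to 2355 with the −log10 q limit. List length and the unknown depth limit what absence of a peak shows.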
